A study of Rattus norvegicus with 14 samples.

Results

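Expression of 10 protein-coding genes of mitochondrial DNA (mtDNA) was followed in rat hippocampal neurons and astrocytes treated with allopregnanolone (Allo), a neurosteroid made from progesterone, or with vehicle. The members were taken by symbol, without use of any measured value: Mt-nd1, Mt-nd2, Mt-nd3, Mt-nd4, Mt-nd5, Mt-nd6, Mt-cyb (spelled Mt-cytb in both deposited tables), Mt-co1, Mt-co3 and Mt-atp6. All 10 were present among the 18239 genes listed for neurons and the 31791 listed for astrocytes. All 10 also passed the filter on low values, which kept genes averaging 10 or more normalized counts in the cell type concerned and left 15314 genes tested in neurons and 15380 in astrocytes.

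The cultures were prepared from hippocampi of Sprague Dawley fetuses at embryonic day 18. Neurons at culture day 10 were moved to a medium with B27 reduced to 0.2%, the aging model (AM), for 4 h and then received 100 nM Allo (AM-Allo, n = 4) or 0.001% ethanol (AM-Veh, n = 4) for 16 h. Astrocytes were kept in their own AM medium, with 10% charcoal-stripped serum, for 24 h and then received 100 nM Allo (AM-Allo, n = 3) or vehicle (AM-Veh, n = 3) for 24 h. Every library therefore came from cells in AM medium, so the comparison concerns Allo against vehicle within that medium, and the labels do not say whether libraries of a group came from separate cultures or animals, so that p-values measure the spread between these libraries only. Neuron libraries carried replicate numbers 1-1, 1-2, 2-1 and 2-2, and those starting with 1 and with 2 are called set 1 and set 2.

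The mitochondrial genome is read as long precursors from both of its strands, which are then cut into messenger, ribosomal and transfer RNAs, so its messengers are made together and differ afterwards in part by how long each is kept. Mt-nd6 is the sole messenger on the light strand, whereas the other 9 members lie on the heavy strand transcript. Each protein sits in a respiratory complex beside subunits encoded in the nucleus: the Mt-nd genes in complex I (NADH dehydrogenase), Mt-cyb in complex III, Mt-co1 and Mt-co3 in complex IV (cytochrome c oxidase) and Mt-atp6 in complex V (ATP synthase).

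Values are counts per gene that the authors estimated from poly(A)-selected, stranded libraries and normalized within each cell type. Estimated depth was 19600000 to 25200000 reads in neuron libraries and 22200000 to 28600000 in astrocyte libraries. The lowest value of a member in any library was 7714 normalized counts, for which counting error alone is about 1.14%. The spread between libraries of a group was larger for most members, with a median coefficient of variation of 3.16% in neuron AM-Veh, 2.64% in neuron AM-Allo, 4.27% in astrocyte AM-Veh and 3.66% in astrocyte AM-Allo. Neuron cultures held their neuronal markers (Map2, Tubb3, Stmn2 and Syt1 among 7 listed, summed level 48417 to 58482) together with astrocyte markers at 188604 to 249329 and oligodendrocyte-lineage markers at 38202 to 45138. Astrocyte cultures held all 7 astrocyte markers at 220444 to 234470. Their neuronal markers summed to 26445 to 28064, with Stmn2 at 21790, Map2 at 3873 and Gad1 at 1803 in AM-Veh. Little Tubb3, Syt1 or Rbfox3 was present (group means of at most 32.2 normalized counts). Mesenchymal markers summed to 56593 to 67855, nearly all from Col1a1, Col1a2 and Col3a1, while group means of Dcn and Lum were at most 10.9. Microglial markers summed to 733 to 1036. Of the endothelial markers, Kdr averaged 543 in AM-Veh and Cldn5 was at 0. The neuron values thus describe mixed cultures, and the astrocyte cultures too carried markers of other cell types. In bulk RNA, fewer cells of a type and less RNA per cell cannot be told apart.

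The 10 members took 5.31%, 5.17%, 4.99% and 4.94% of all normalized counts in neuron AM-Veh libraries 1-1, 1-2, 2-1 and 2-2. In neuron AM-Allo the same libraries gave 5.18%, 5.13%, 4.89% and 4.92%. The groups overlapped, at 5.10% ± 0.171 (SD, n = 4) in AM-Veh and 5.03% ± 0.149 (n = 4) in AM-Allo, and the 2 sets stood further apart (5.13% to 5.31% in set 1, 4.89% to 4.99% in set 2) than the treatments did. In astrocytes the share was 3.44%, 3.21% and 3.20% in AM-Veh and 3.10%, 2.94% and 3.12% in AM-Allo, that is 3.28% ± 0.138 against 3.05% ± 0.0969 (n = 3 each). Every astrocyte AM-Allo library lay below every AM-Veh library, and the mean difference was -0.233 percentage points, a ratio of 0.929. As a sum over chosen genes the share was not tested.

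**Figure D1:**
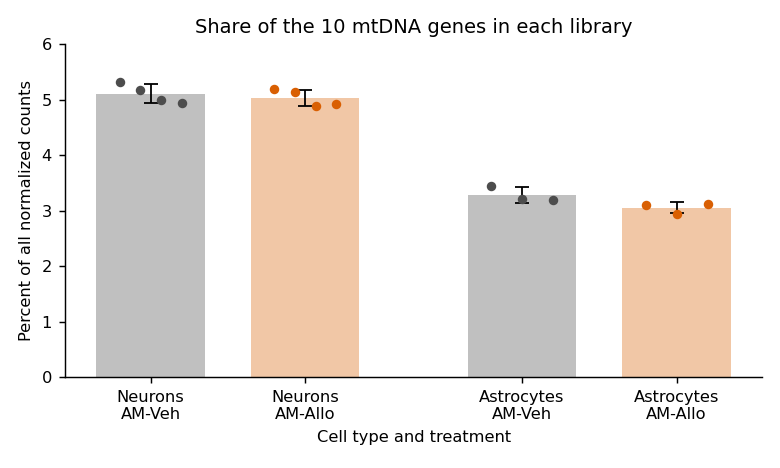
Share of the summed normalized counts of each library taken by the 10 mtDNA genes, in percent, by cell type and treatment. Bars are group means, points single libraries and error bars 1 SD (n = 4 neuron and 3 astrocyte libraries a group); the neuron groups overlap near 5%, and the 3 astrocyte AM-Allo libraries (2.94% to 3.12%) lie below the 3 AM-Veh libraries (3.20% to 3.44%).

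In astrocytes, 9 of 10 members had a log2 fold change below 0, as did 49.3% of all genes, with a median log2 fold change of -0.10 against 0.0014 over all genes tested, and 8 of 10 were lower at an unadjusted p under 0.05 in the limma fit across all genes. Over all genes, 3.29% were lower at that threshold and 7.01% differed in either direction. None of the 10 passed the adjusted threshold, with Benjamini-Hochberg adjusted p from 0.394 to 0.898 by limma, and over all genes 1 did (0.0065%). In 8 of 10 members every AM-Allo library lay below every AM-Veh library, a pattern that 6.07% of all genes showed. With 3 libraries against 3, an exact permutation test cannot give a p below 0.10. The members come from shared precursor RNAs and the same libraries, so their number is not a number of independent observations.

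The count rested on single libraries. AM-Veh 1 had the highest value of its group for all 10 members, and AM-Allo 2 the lowest of its group for all 10. Of the 8 members, 2 (Mt-nd3 and Mt-atp6) stayed under an unadjusted p of 0.05 when AM-Veh 1 was left out, 3 (these and Mt-nd4) when AM-Allo 1 was and 4 (these without Mt-nd4 but with Mt-co3 and Mt-cyb) when AM-Allo 2 was, while 1 (Mt-nd3) did so when limma's variance was not allowed to follow the mean. The median of the members stayed below 0 in each of these fits (-0.12 to -0.071 with a library left out). With upper-quartile scaling, 39.0% of the genes at an unadjusted p under 0.05 were higher, against 53.1% as deposited, and 9 members were lower.

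Among complex I genes, Mt-nd3, a small core membrane subunit, had the largest difference. Its normalized counts were 12673, 12032 and 10815 in AM-Veh and 10250, 7714 and 10240 in AM-Allo. The groups did not overlap, AM-Allo 2 was the lowest by a wide margin, and the means were 11840 ± 944 and 9401 ± 1462 (SD, n = 3 each). The log2 fold change was -0.34 (95% confidence interval -0.54 to -0.15; limma, unadjusted p = 0.00209, adjusted p = 0.394), a difference of -21.1%. Without AM-Allo 2 it was -0.21 (unadjusted p = 0.00247, limma), and a robust limma fit of all libraries gave an unadjusted p of 0.0763.

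Mt-nd4, a proton-pumping membrane subunit, had 83302, 76081 and 77058 normalized counts in AM-Veh against 75480, 69159 and 75397 in AM-Allo. The groups were adjacent without overlap, and the log2 fold change was -0.10 (95% interval -0.21 to -0.00053; limma, unadjusted p = 0.0490). Mt-nd1, which lies near the quinone site, had 43858, 41208 and 40696 in AM-Veh and 39170, 37368 and 40411 in AM-Allo, with a log2 fold change of -0.10 (limma, unadjusted p = 0.0255). Its highest AM-Allo library lay just under its lowest AM-Veh library. Mt-nd2, another proton-pumping subunit, ranged from 50033 to 54217 in AM-Veh and from 46702 to 49668 in AM-Allo, with a log2 fold change of -0.095 (limma, unadjusted p = 0.0400). Mt-nd5, the third subunit of that kind, had 50387, 46523 and 49334 in AM-Veh and 46047, 43594 and 47410 in AM-Allo. Its groups overlapped and its log2 fold change was -0.094 (limma, unadjusted p = 0.0478).

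Mt-nd6, the light-strand member, was the exception. It had 13073, 11710 and 12611 normalized counts in AM-Veh against 12639, 11593 and 15208 in AM-Allo, so that AM-Allo 3 was the highest of all 6 libraries and AM-Allo 2 the lowest. The log2 fold change was 0.069 (95% interval -0.094 to 0.23; limma, unadjusted p = 0.376). It was -0.041 without AM-Allo 3 and 0.16 without AM-Allo 2 (unadjusted p = 0.0371, limma), so its direction depended on which library was kept.

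Mt-cyb, the mtDNA subunit of complex III that carries its haem b groups, had 98843, 93728 and 94192 normalized counts in AM-Veh against 88952, 86720 and 90473 in AM-Allo. All 3 AM-Allo libraries were lower than all 3 AM-Veh libraries, with a log2 fold change of -0.11 (95% interval -0.19 to -0.021; limma, unadjusted p = 0.0184, adjusted p = 0.627). Mt-atp6, the proton channel subunit of ATP synthase, had 76421, 70764 and 70200 in AM-Veh and 67934, 63609 and 66780 in AM-Allo. It too showed no overlap, and its log2 fold change of -0.13 (95% interval -0.23 to -0.037; limma, adjusted p = 0.529) was the second largest of the 10.

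Both members of complex IV were lower. Mt-co1, the catalytic subunit that holds the oxygen-reducing centre, had 292034, 274121 and 271386 normalized counts in AM-Veh against 264278, 251652 and 266031 in AM-Allo. Its groups did not overlap, while its log2 fold change of -0.099 (95% interval -0.21 to 0.0078; limma) had an unadjusted p of 0.0666. Mt-co3, a core subunit without a metal centre, had 93699, 92564 and 86790 in AM-Veh and 83846, 83149 and 86333 in AM-Allo, again without overlap, at a log2 fold change of -0.11 (limma, unadjusted p = 0.0227).

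**Figure D2:**
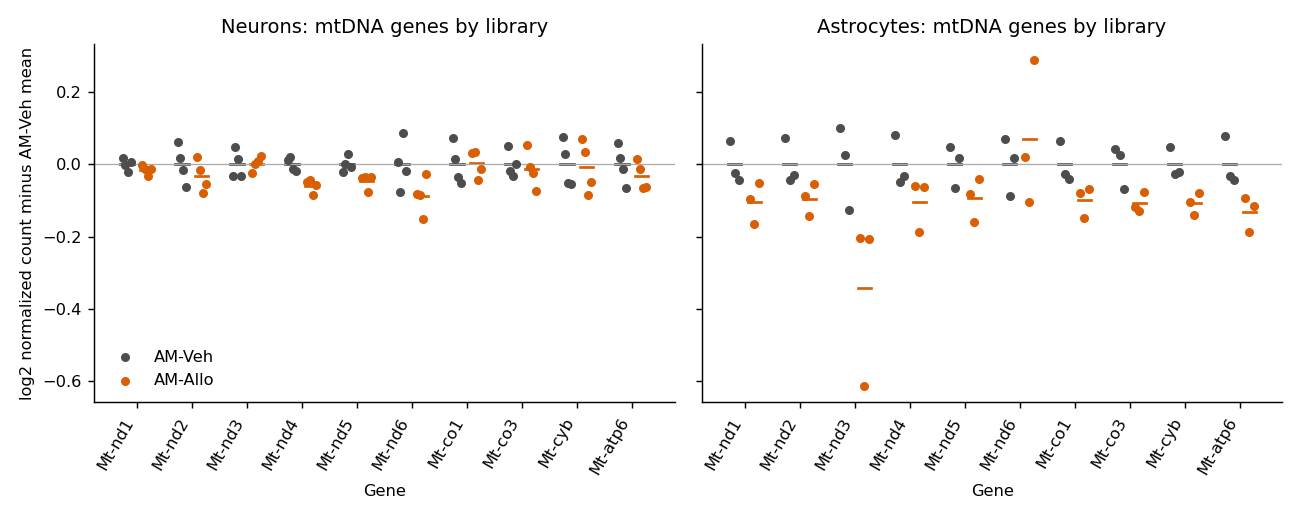
Normalized count of each mtDNA gene in each library, as the log2 difference from the AM-Veh mean of the cell type (y axis), for neurons (left) and astrocytes (right). Points are libraries and short bars group means; most neuron points lie within 0.1 of 0 in both groups, while astrocyte AM-Allo points lie below 0 for 9 genes, Mt-nd3 in AM-Allo 2 lowest, and Mt-nd6 in AM-Allo 3 highest.

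In neurons, 0 of 10 members passed the adjusted threshold (limma, adjusted p 0.880 to 0.998) and 0 of 10 had an unadjusted p under 0.05, against 5.69% of all genes at an unadjusted p under 0.05 (2.48% lower, 3.21% higher) and 0.0261% at an adjusted p under 0.05. Log2 fold changes ran from -0.087 to 0.0033 with a median of -0.023, and 8 of 10 were below 0, as were 50.8% of all genes. The 95% intervals of the 10 members lay between -0.18 and 0.11, or between -11.6% and 7.99% as a relative difference. The signs of Mt-nd3, Mt-co1, Mt-co3 and Mt-cyb, the 4 closest to 0, each turned with some library left out, those of Mt-nd3 and Mt-co3 also with quantile normalization.

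The largest neuron differences were in 3 complex I genes. Mt-nd4 had 126099, 126992, 123960 and 123561 normalized counts in AM-Veh (1-1, 1-2, 2-1 and 2-2) and 120999, 121334, 117974 and 120365 in AM-Allo. All 4 AM-Allo libraries were below all 4 AM-Veh libraries, as for 1.89% of all genes, and the log2 fold change was -0.059 (95% interval -0.14 to 0.019; limma, unadjusted p = 0.123; exact permutation p = 0.0286, two-sided, the smallest that 4 against 4 can give). Mt-nd5 had 87234, 88722, 90339 and 88046 in AM-Veh and 86360, 86491, 84022 and 86515 in AM-Allo, also without overlap, at a log2 fold change of -0.045 (limma, unadjusted p = 0.202; exact permutation p = 0.0286). Mt-nd6 had 24639, 23260, 26036 and 24183 in AM-Veh and 23136, 23088, 22060 and 24062 in AM-Allo. Its groups overlapped, and its log2 fold change was -0.087 (95% interval -0.18 to 0.0041; limma, unadjusted p = 0.0593; exact permutation p = 0.0571). Over the 10 genes and 2 cell types, 20 permutation tests were made, without adjustment. The 3 given here are the smallest in neurons. Exact permutation p of the remaining members ran from 0.20 to 0.914 in neurons, and that of all 10 from 0.10 to 0.80 in astrocytes.

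Neuron AM-Veh and AM-Allo libraries of the same set deviated together, whether or not they shared the whole replicate number. Correlations were 0.229 to 0.296 with a shared number, 0.185 to 0.236 without it in the same set, and -0.319 to -0.150 across sets. With the whole number as a block, Mt-nd4 (limma, unadjusted p = 0.0110, adjusted p = 0.285) and Mt-nd6 (unadjusted p = 0.0215, adjusted p = 0.365) came under an unadjusted p of 0.05. That made 2 of 10 members against 10.7% of all genes in the same fit, and 0 of 10 under an adjusted p of 0.05 against 0.607%. A block by the first part of the number alone gave 3 of 10, with Mt-nd5 added, against 11% of all genes. Without AM-Veh 1-2 or without AM-Allo 2-2, 1 member, Mt-nd6, was under an unadjusted p of 0.05 in the fit with no block. Within sets the median log2 fold change of the members was -0.023 in set 1 (9 below 0) and -0.027 in set 2 (8 below 0).

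Among the remaining neuron members, 3 separated the sets and none separated the treatments. The share of all genes that separated the sets was not counted, so the 3 cannot be set against it. Mt-cyb had 139437 and 135032 normalized counts in AM-Veh against 138759 and 135321 in AM-Allo of set 1, then 127526 and 127389 in AM-Veh and 124604 and 127788 in AM-Allo of set 2. No set 2 library reached any of set 1, with a log2 difference of -0.11, whereas the treatment groups overlapped at a log2 fold change of -0.0082 (95% interval -0.12 to 0.10; limma, unadjusted p = 0.872). Mt-co1 ran from 332253 to 345944 in set 1 and from 317360 to 326421 in set 2, and its treatment difference was 0.0033 (95% interval -0.10 to 0.11; limma, unadjusted p = 0.947). Mt-nd2 also separated the sets (log2 difference -0.074) and not the treatments (log2 fold change -0.032; limma, unadjusted p = 0.438). Mt-nd1 (log2 fold change -0.015), Mt-nd3 (0.0018), Mt-co3 (-0.013) and Mt-atp6 (-0.031) separated neither, with limma unadjusted p from 0.461 to 0.952. The part of the sets in these values beyond the block and within-set values was not tested.

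**Figure D3:**
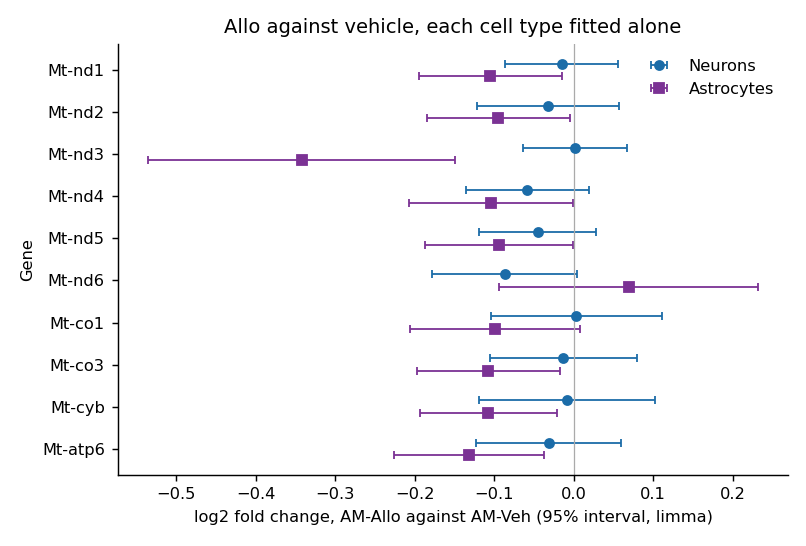
Log2 fold change of AM-Allo against AM-Veh (x axis) with its 95% interval from limma for each mtDNA gene, in neurons (circles, n = 4 a group) and astrocytes (squares, n = 3 a group), each fitted alone. Intervals are from the fits with no block, so the neuron sets are not taken into account. All 10 neuron intervals span 0. In astrocytes 8 intervals lie below 0, Mt-nd3 furthest at -0.34, and those of Mt-nd6 and Mt-co1 span 0.

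The 2 cell types were normalized in separate tables, so the difference between their fold changes was not tested. In the fits with no block the 95% intervals overlap between them for every member but Mt-nd3.

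The make-up of the mtDNA messengers was then described as the share of each gene in the summed counts of the 10, a measure in which a change common to all members cancels. In astrocytes Mt-nd3 made up 1.55%, 1.57% and 1.42% of the members' counts in AM-Veh and 1.39%, 1.10% and 1.37% in AM-Allo. These groups did not overlap, at 1.51% ± 0.0815 and 1.29% ± 0.162 (SD, n = 3 each), and the ratio of means was 0.852, or 0.914 without AM-Allo 2. Mt-nd6 made up 1.52% to 1.65% in AM-Veh and 1.71%, 1.65% and 2.03% in AM-Allo. Here every AM-Allo library was higher, the lowest by a very small margin, and the ratio was 1.13, or 1.06 without AM-Allo 3. The other 8 members overlapped between treatments, with ratios of 0.981 to 1.01. In neurons all 10 shares overlapped between treatments, with ratios of 0.954 to 1.02.

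**Figure D4:**
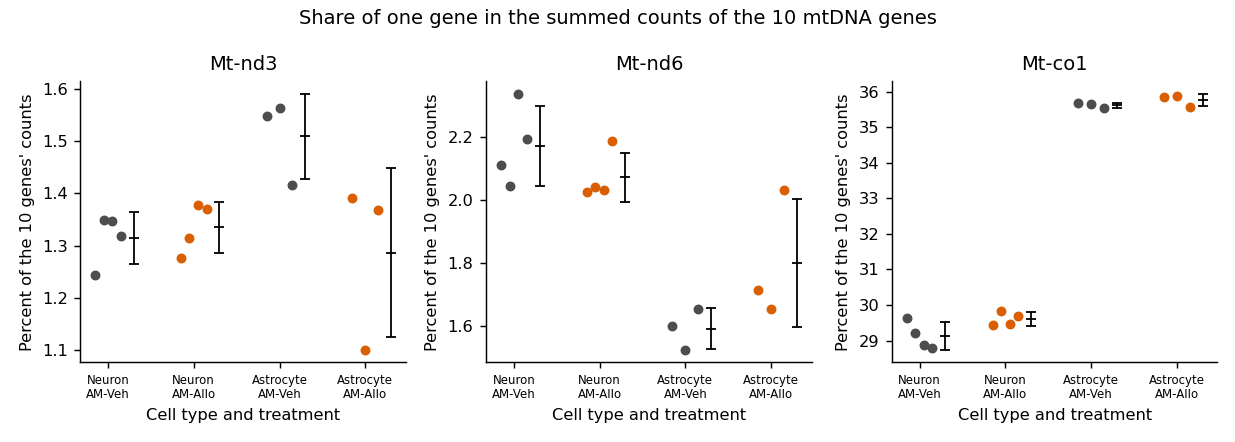
Share of Mt-nd3, Mt-nd6 and Mt-co1 in the summed normalized counts of the 10 mtDNA genes, in percent, by cell type and treatment; the y axes do not start at 0. Points are libraries, with the group mean and SD beside them; in astrocytes Mt-nd3 is lower (1.10% to 1.39% against 1.42% to 1.57%) and Mt-nd6 higher in AM-Allo, and Mt-co1 differs by cell type (28.8% to 29.8% in neurons, 35.5% to 35.9% in astrocytes).

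Between cell types each member took a larger share of the neuron libraries. For 10 of 10 genes every neuron library exceeded every astrocyte library, and the ratio of AM-Veh means went from 1.27 for Mt-co1 to 2.24 for Mt-nd1. The make-up differed as well. Mt-co1 made up 29.1% ± 0.388 (n = 4) of the members' counts in neuron AM-Veh and 35.6% ± 0.0739 (n = 3) in astrocyte AM-Veh. Mt-nd1 made up 7.71% ± 0.163 and 5.35% ± 0.0171, Mt-nd5 7.84% ± 0.278 and 6.22% ± 0.213, and Mt-nd6 2.17% ± 0.126 and 1.59% ± 0.0644 in the same groups. In 5 members (Mt-nd1, Mt-nd2, Mt-nd4, Mt-nd5 and Mt-atp6) all neuron libraries had the larger share of the members' counts and in 1, Mt-co1, all had the smaller. The 10 shares make up a fixed whole, so a smaller share of Mt-co1 by itself raises the others. Neuron to astrocyte ratios of AM-Veh means were 1.44 for Mt-nd1, 1.26 for Mt-nd5, 1.11 for Mt-nd2, 1.10 for Mt-nd4 and 1.07 for Mt-atp6. Whether these differ apart from Mt-co1 was not tested. Mt-nd6 overlapped between cell types only through astrocyte AM-Allo 3, at 2.03% against 2.02% in the lowest neuron library. These are separate cultures, media, treatment times and normalizations, which cannot be told apart from cell type, so no test was made. The share of all genes that separated the cell types was not counted. The 10 of 10 is therefore not shown to be particular to the members.

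Nuclear genes of the same complexes were read from lists of known subunits, some of which the study itself had named from these libraries, so that their counts are not independent of it. In astrocytes those at an unadjusted p under 0.05 (limma) were all higher, whereas the 8 members at that threshold were all lower. By sign alone the nuclear lists were mixed. Log2 fold changes were below 0 in 13 of 35 complex I, 3 of 9 complex III, 2 of 11 complex IV and 6 of 14 complex V genes. The same held for 9 of the 10 members and 49.3% of all genes. Of 35 complex I genes tested, 4 were higher and 0 lower at that threshold, against 3.72% of all genes higher, and their median log2 fold change was 0.016. Complex III had 3 of 9 higher (median 0.0051), complex IV 7 of 11 (median 0.16) and complex V 5 of 14 (median 0.020), with 0 lower in each. None of these passed an adjusted p of 0.05. With a library left out, complex IV had 4 such genes without AM-Veh 3, complex III 1 without AM-Allo 3, and complex I 2 without AM-Allo 2. Complex V had 1 when AM-Veh 1 was omitted, 2 when either AM-Veh 3 or AM-Allo 2 was, and 3 when AM-Allo 3 was. Without the variance trend the counts were 1, 1, 3 and 1 for complexes I, III, IV and V, and with upper-quartile scaling complex V had 3.

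The complex IV genes with the smallest unadjusted p were Cox8a (log2 fold change 0.35, limma, unadjusted p = 0.000374, adjusted p = 0.241), Cox6b1 (0.31, adjusted p = 0.269) and Cox7b (0.25, adjusted p = 0.473), all small accessory subunits around the mtDNA-encoded core. In complex V, Atp5mg, a small membrane subunit, had 887 ± 37.3 normalized counts in AM-Veh against 1221 ± 213 in AM-Allo (log2 fold change 0.44; limma, adjusted p = 0.269). Atp5f1d (0.11) and Atp5pf (0.13) followed. In complex III the values were 0.32 for Uqcrq, 0.27 for Uqcrb and 0.24 for Uqcr10, and in complex I 0.20 for Ndufab1, 0.33 for Ndufb2 and 0.12 for Ndufb11, all with limma adjusted p of 0.498 or more.

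As the ratio of the members' summed normalized counts to those of the nuclear genes of the same complex, complex IV stood at 19.4, 18.1 and 17.8 in astrocyte AM-Veh and at 16.9, 14.9 and 15.5 in AM-Allo. All AM-Allo libraries were lower, with means of 18.4 ± 0.849 and 15.8 ± 1.01 (n = 3 each) and an AM-Allo to AM-Veh ratio of 0.856. The corresponding ratios were 0.920 for complex I, 0.917 for complex III and 0.906 for complex V, each without overlap between groups. Their numerators are the members' own counts, so these separations are not further observations beside those of the members. How often such ratios separate the groups for other genes was not counted. Summed nuclear counts themselves overlapped between treatments for complexes I, III and V, and for complex IV they were higher in every AM-Allo library (21938 ± 1143, against 20113 ± 185 in AM-Veh). In neurons the ratios of means were 0.986 to 1.01 and all 4 complexes overlapped. These ratios depend on gene lengths and are comparable only across libraries of a cell type.

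**Figure D5:**
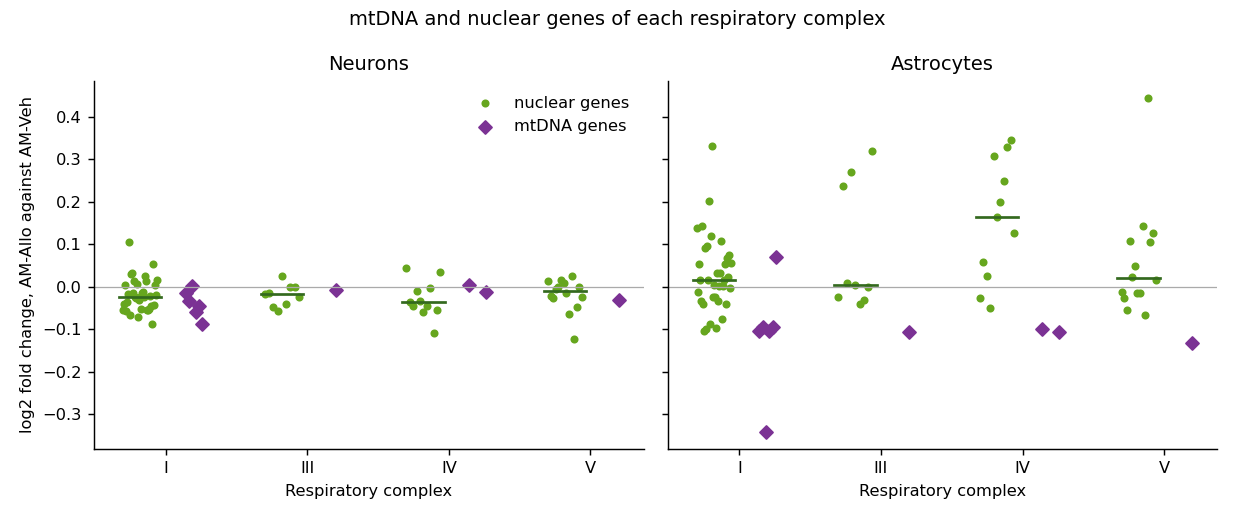
Log2 fold change of AM-Allo against AM-Veh (y axis) for the nuclear genes (circles, with their median as a line) and the mtDNA genes (diamonds) of respiratory complexes I, III, IV and V, in neurons (left) and astrocytes (right). In astrocytes the nuclear medians are at or above 0 (0.16 for complex IV) while the mtDNA genes other than Mt-nd6 lie below 0; in neurons both kinds lie close to 0.

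In neurons few genes of the nuclear lists were called, where 2.48% of all genes were lower and 3.21% higher at the unadjusted threshold. Complex I had 0 of 35 genes higher and 1 lower at an unadjusted p under 0.05 (limma): Ndufs5, at a log2 fold change of -0.088. Complex IV had 1 of 11 lower (Cox7c, -0.11), and complexes III (9 tested) and V (14 tested) had 0 in either direction. Atp5mg of complex V was near the threshold (log2 fold change -0.12, limma, unadjusted p = 0.0504, and 0.0172 with the replicate block). It was lower at an unadjusted p under 0.05 in 11 of 21 alternatives. The call for Ndufs5 was lost when AM-Allo 1-2, AM-Allo 2-1, AM-Veh 2-1 or AM-Veh 2-2 was omitted. Medians were -0.024, -0.016, -0.035 and -0.0097 for complexes I, III, IV and V. None passed an adjusted p of 0.05.

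The genes that act on mtDNA and its RNAs gave few calls. Tfam, which packages mtDNA and helps to start its transcription, had 915 ± 68.5 normalized counts in astrocyte AM-Veh against 857 ± 23.1 in AM-Allo (log2 fold change -0.091; limma, unadjusted p = 0.161). In neurons it had 918 ± 30.6 and 887 ± 21.4 (log2 fold change -0.048; limma, unadjusted p = 0.265). Polrmt, the mitochondrial RNA polymerase, had log2 fold changes of 0.030 in astrocytes and 0.077 in neurons, and Tfb2m, its initiation factor, 0.028 and -0.014. Of 15 genes of mtDNA transcription and replication tested in each cell type, 1 was lower at an unadjusted p under 0.05 in astrocytes (Ssbp1, a single-stranded DNA binding protein, log2 fold change -0.19) and 1 in neurons (Tefm, the elongation factor, -0.27), with 0 higher and list medians of -0.033 and -0.021. Of 17 genes of mitochondrial RNA processing and stability, 1 was higher in astrocytes (Slirp, which with Lrpprc stabilizes mtDNA messengers, 0.24; median of the list -0.017) and 0 in either direction in neurons (median -0.035). Of 11 mitochondrial translation factors, 0 differed in either cell type, with medians of -0.019 and -0.046. Over all genes, 3.29% were lower and 3.72% higher at the unadjusted threshold in astrocytes, and 2.48% lower and 3.21% higher in neurons. None of the listed genes passed an adjusted p of 0.05 (limma). The astrocyte call for Ssbp1 was lost without AM-Veh 2, AM-Veh 3 or AM-Allo 1, and that for Slirp when AM-Veh 3, AM-Allo 2 or AM-Allo 3 was omitted. Lrpprc itself narrowly missed the threshold in astrocytes, at a log2 fold change of -0.088 with all AM-Allo libraries below all AM-Veh libraries (limma, unadjusted p = 0.0505), and was lower at that threshold in 9 of 18 alternatives.

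The tables hold 3 more mtDNA messengers by symbol, which were not members. In astrocytes Mt-nd4l, a complex I subunit whose reading frame overlaps that of Mt-nd4, had 7803, 7457 and 7077 normalized counts in AM-Veh against 6802, 5713 and 6272 in AM-Allo. The groups did not overlap, and the log2 fold change was -0.25 (95% interval -0.37 to -0.13; limma, adjusted p = 0.269). Mt-co2, which passes electrons from cytochrome c, had -0.10 (limma, unadjusted p = 0.0728) and Mt-atp8, which overlaps Mt-atp6, 0.058 (unadjusted p = 0.559). In neurons the 3 ranged from -0.062 to -0.030 with 0 under an unadjusted p of 0.05 (limma). Reads in overlapping frames, and reads shared with nuclear copies of mtDNA, may have been assigned to either gene.

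Further features with the Mt- prefix were listed by Ensembl identifier alone, 17 in neurons and 24 in astrocytes, of which 10 and 7 passed the filter. At an unadjusted p under 0.05 (limma), 4 of the 7 were higher in astrocyte AM-Allo and 0 lower, where 3.72% of all genes were higher, and 0 of the 10 differed in neurons in either direction. None passed an adjusted p of 0.05. In astrocytes Mt-ENSRNOG00000032882 had 458, 367 and 405 normalized counts in AM-Veh against 586, 697 and 1192 in AM-Allo. All AM-Allo libraries were higher, as for 6.42% of all genes, AM-Allo 3 by far, at a log2 fold change of 0.94 (95% interval 0.54 to 1.35; limma, adjusted p = 0.227). AM-Allo 3 was also the astrocyte library with the highest Mt-nd6 and the deepest of all 14 libraries. The other features at that threshold were low, with group means of 15.9 to 46.9 normalized counts, and overlapped between treatments. The largest p of the 4 was 0.0481, and Mt-ENSRNOG00000032609 had a log2 fold change of 0.75 (limma, unadjusted p = 0.0291). The most abundant feature of this kind, Mt-ENSRNOG00000043866, averaged 13062 in AM-Veh against 12358 (log2 fold change -0.080; limma, unadjusted p = 0.0762). In neurons Mt-ENSRNOG00000032882 had a log2 fold change of -0.072 (limma, unadjusted p = 0.711).

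Markers of cell types were read in the same astrocyte fit. Of 7 astrocyte markers 2 were lower at an unadjusted p under 0.05 by limma (S100b, log2 fold change -0.088, and Slc1a2, -0.36). So were 1 of 6 microglial markers (Cx3cr1, -0.58) and 1 of 5 neuronal markers tested (Map2, -0.13), against 3.29% of all genes. The summed astrocyte markers were 221276 to 234470 in AM-Veh and 220444 to 225315 in AM-Allo. Summed mesenchymal markers overlapped. In neurons 3 of 7 neuronal markers were higher at that threshold (Map2, Tubb3 and Slc17a7) and 0 lower, against 3.21% of all genes higher. The list was split in direction, with 4 log2 fold changes above 0 and 3 below (Syt1 -0.077, Rbfox3 -0.068 and Gad1 -0.41, the last with an unadjusted p of 0.0529 by limma). The part of these markers and of library depth in the members' values was not tested.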

How the data were processed

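RNA was measured by poly(A)-selected, stranded paired-end sequencing in 14 libraries. The authors estimated counts with Salmon 0.14 against rat transcripts, combined transcripts of a gene by tximport, and used DESeq2 1.18.1 for normalization; the deposited normalized counts are a signal with gene-specific normalization factors and were used as given. The deposited variance-stabilized values, close to a log2 scale, served as an alternative; in neurons their set 2 libraries carry a constant shift per gene (median 0.0394) against the normalized counts. Because the values are not raw counts, limma 3.58.1 (R 4.3.3, trend, log2 of the normalized count plus 1, genes with a mean of at least 10) was fitted to each cell type alone, with Benjamini-Hochberg adjustment over all genes tested, and fold changes are on that scale. Single members were also tested by exact permutation (scipy 1.17.1). The same test was run on the other Mt- features and on nuclear genes named by rule, and those values are not used. Depth was estimated as the total divided by the value of 1 read. Groups came from the sample titles. Same-numbered neuron libraries deviated together (correlations 0.229 to 0.296), as did differently numbered ones of the same set (0.185 to 0.236). Blocked values by whole number and by set are therefore given, from the data and shared numbers in the titles. Same-numbered astrocyte libraries did not deviate together (-0.00698 to 0.0241). Named were all 10 members, the other mtDNA genes listed by symbol, up to 3 nuclear genes a list with the smallest unadjusted p under 0.05, and Tfam, Polrmt and Tfb2m. The Mt- features listed by identifier were counted. Those named, the marker genes named, Lrpprc and Atp5mg were picked after their values were seen. The members, lists and tests were chosen with earlier results of these data known. The fitting code was tested on simulated data. Lengths, positions and sequences of mtDNA genes were not used here, so levels of different members are not ranked.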

Additional observations from a re-analysis of the deposited data

Results flagged for a closer look

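In neuron AM-Allo the lowest Mt-nd5 library, 2-1, had 84022 normalized counts, whereas the other 3 had 86360, 86491 and 86515. Its gap to the nearest of them was 0.938 of the group's range, above Dixon's 95% critical value for 4 samples. Over 22 groups of 4 libraries examined, chance alone marks about 1 in 20 groups. In AM-Veh the library with that number had the highest Mt-nd5 value of its group, 90339.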

How the results depend on the processing

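The members' median log2 fold change stayed below 0 under every alternative run in both cell types, from -0.12 to -0.071 in astrocytes and from -0.041 to -0.010 in neurons. No named member or list reversed with a call. In neurons, 0 members under an unadjusted p of 0.05 became 3 with variance-stabilized values, 2 with a robust fit, 2 with a replicate block by the whole number and 3 with a block by its first part, and 0 to 1 with a library left out. Genes under an unadjusted p of 0.05 in neurons (872) became 2204, 1634 and 1684 with variance-stabilized values, the replicate block and the block by first part, and 678 to 966 with a library left out. Genes under an adjusted p of 0.05 (4) became 158, 93 and 104 in those fits, 0 without the variance trend and 0 to 4 with a library left out. In astrocytes, where the numbers did not pair the samples, 8 members became 1 without the variance trend, 9 with the replicate block and 2 to 8 with a library left out, counting Mt-nd6, higher without AM-Allo 2, in 1 of these. Genes under an adjusted p of 0.05 (1) became 0 with a mean of at least 50, 0 without the trend, 4 with a robust fit, 17 with the replicate block and 1 to 72 with a library left out, 72 without AM-Allo 1, and those at an unadjusted p were 782 to 1279. The neuron variance-stabilized values carry the constant shift per gene in set 2 given above, so that fit differs from the main fit in more than scale. The cause of these differences was not tested. Quantile normalization gave Mt-co1 in both cell types and Mt-nd4 in neurons a difference of 0, since their rank was the same in every library. The nuclear lists were recomputed in all settings, an alternative added after seeing the data. With 3 or 4 libraries a group, differences of a few percent were at the limit of detection.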
